A study of Mus musculus with 6 samples.

Results

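The 10 genes described here encode 9 myosin light chains (Myl1, Myl2, Myl3, Myl4, Myl6, Myl6b, Myl7, Myl9 and Mylpf) and the myosin light chain kinase Mylk. They were picked by name as a gene family, at a time when earlier results of these data were known, and all 10 were found among the 22186 genes of the deposited table. Messenger RNA was sequenced in primary adipose-derived stromal cells (ADSCs, fibroblast-like cells from fat that can enter several mesenchymal lineages) of mice. All 6 libraries came from cells of WT genotype. Of these, 3 were from control ADSCs (treatment labelled Ctrl, with no culture time recorded). The other 3 were from ADSCs that had shared their culture for 48 h with Treg (regulatory T cells, which restrain immune responses). Since no other cell type was used as a partner, an effect of Treg and one of co-culture as such cannot be told apart. The labels do not say whether replicates were separate animals or cultures, and the p-values reflect only how far these libraries differ from one another, which may be technical. Values are TPM (the share of a gene in all transcripts, corrected for length), which can be compared between genes. They keep no sequencing depth, so no counting interval can be given.

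Each myosin motor carries a pair of small proteins on its lever arm, an essential and a regulatory light chain, and different cell types use different genes for each. In striated muscle the light chains stiffen and tune the lever arm. In smooth muscle and nonmuscle cells, phosphorylation of the regulatory chain by calcium-calmodulin-activated Mylk or by other kinases switches the motor on, and a myosin phosphatase switches it off. Fibroblast-like cells are known for the nonmuscle chains Myl6, Myl9, Myl12a and Myl12b, and developing skeletal muscle for Myl1, Myl4 and Mylpf.

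Light chain genes of fast and embryonic muscle (Mylpf, Myl1 and Myl4) and Myl6b were higher after Treg co-culture. The nonmuscle chains Myl6 and Myl9 stayed within 1.04-fold of control, and Mylk was lower. Of the 10 genes, 4 rose (Mylpf, Myl6b, Myl4 and Myl1, by 1.62-fold to 2.37-fold), Mylk fell 1.29-fold, 4 did not pass the threshold (Myl2, Myl3, Myl6 and Myl9) and Myl7 was too low to be tested. The test was limma on log2(TPM + 1) over the 12405 genes whose mean reached 1 TPM, with a Benjamini-Hochberg adjusted p of 0.05 as the threshold. In the same fit 19.8% of all genes tested were called higher and 18.0% lower, with a median log2 fold change of 0.00, against 0.70 for the 7 light chain and kinase genes tested other than Myl2 and Myl3. With Myl2 and Myl3, which passed the filter on low values through 1 library only, the median was 0.81, the value of Myl3 itself. Leaving out Treg co-culture 1, the library in which they were high, the counts were again 4 higher and 1 lower.

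The control cultures already held light chains of both kinds. By mean TPM the order in controls was Myl6, Myl9, Myl1, Mylpf, Myl4, Mylk and Myl6b, and no neighbours among these 7 had overlapping ranges. After co-culture Mylpf stood second, ahead of Myl1, Myl9 and Myl4, and Myl6b and Mylk were next with overlapping ranges (56.7 to 63.0 and 54.6 to 61.9 TPM). Myl2, Myl3 and Myl7 came last in both groups, with ranges that overlapped from each to the next.

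**Figure D1:**
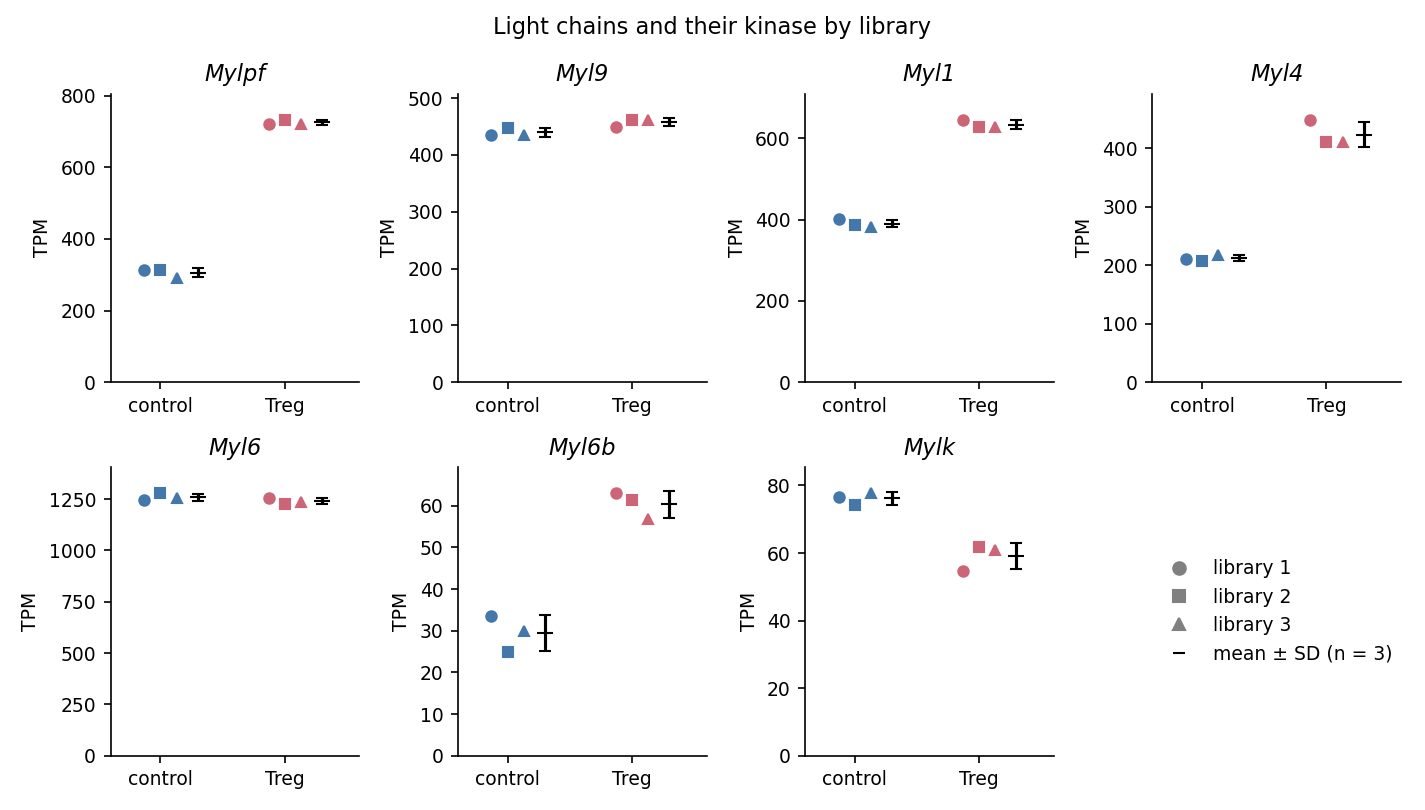
TPM (y axes, from 0) of the 7 genes with the highest means in each control (blue) and Treg co-culture (red) library; the marker shape gives the library number and the black bar the mean ± SD of 3 libraries. The groups are far apart for Mylpf (306 and 725 TPM), Myl1, Myl4 and Myl6b, close for Myl9 and overlapping for Myl6, and the Mylk values are lower after co-culture.

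Mylpf encodes the regulatory light chain of fast skeletal muscle. Controls 1 to 3 held 313, 313 and 291 TPM of it, and Treg co-culture 1 to 3 held 722, 733 and 722 TPM. Every co-culture library lay above every control. The mean went from 306 ± 12.4 to 725 ± 6.16 TPM (SD, n = 3 each), a 2.37-fold rise. On the log2 scale it rose by 1.25 (SE 0.03, limma adjusted p = 1.66e-09), and only 49 of the genes tested had a larger one. Within the batches that the labels give to same-numbered libraries, the log2 differences were 1.20, 1.22 and 1.31.

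Myl1 gives the essential light chains of fast muscle, a long and a short form made from alternative starts, which a single value per gene does not separate. It stood at 401, 387 and 383 TPM in the controls and at 646, 628 and 627 TPM after co-culture, with no overlap. Its mean rose 1.62-fold, from 390 ± 9.02 to 634 ± 10.6 TPM (log2 fold change 0.70, SE 0.02, limma adjusted p = 2.09e-08). Myl4 is the essential chain of embryonic muscle and of the atria. Its controls held 210, 208 and 218 TPM and its co-culture libraries 449, 411 and 411 TPM. Treg co-culture 1 was thus the highest for Myl4, and the log2 fold change of 0.99 (SE 0.04, limma adjusted p = 2.84e-08) was 0.95 without that library. Myl6b, an essential chain of slow skeletal muscle and nonmuscle cells, had 33.6, 25.0 and 30.0 TPM in the controls and 63.0, 61.3 and 56.7 TPM after co-culture. It rose 2.04-fold, with a log2 fold change of 1.02 and a wider error (SE 0.09, limma adjusted p = 1.48e-05) than the other 3 that rose. The within-batch log2 differences ran from 0.69 to 0.71 for Myl1, from 0.92 to 1.09 for Myl4 and from 0.89 to 1.26 for Myl6b.

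These rises stood beside those of other skeletal muscle transcripts. All 10 genes of a skeletal muscle marker list rose, beside 19.8% of all genes tested, and none was at 0 in any library. The list was chosen with earlier results of these data known. The list sum was 1044 to 1120 TPM in the controls and 2686 to 2750 TPM after co-culture, and its median log2 fold change was 1.33. The highest after co-culture were the actin Acta1 (1412 to 1453 TPM after co-culture, 519 to 545 TPM in controls), the myogenic factor Myog (287 to 300 and 101 to 108 TPM) and the intermediate filament gene Des (282 to 291 and 123 to 140 TPM). In bulk RNA, more cells of a type and more RNA per cell cannot be told apart.

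The nonmuscle chains Myl6 and Myl9 differed little between the groups. Myl6 encodes the essential chain shared by smooth muscle and nonmuscle cells and was the most abundant of the 10 genes. It held 1244, 1279 and 1256 TPM in the controls and 1258, 1228 and 1238 TPM after co-culture. The groups overlapped, with a log2 fold change of -0.02 (SE 0.02, limma adjusted p = 0.409). Myl9, the regulatory chain of smooth muscle and contractile fibroblasts, had 435, 448 and 436 TPM in the controls and 450, 461 and 462 TPM after co-culture. All 3 co-culture values lay above the controls, as they did for 25.3% of the genes tested. The log2 fold change of 0.06 (SE 0.02) did not pass the threshold (limma adjusted p = 0.0761). Of 8 smooth muscle markers, led by Acta2, Tagln and Des, 6 rose and Myh11 fell, beside 19.8% of all genes tested called higher and 18.0% lower. Des, at 2.19-fold, is also on the skeletal muscle list, and none of the others rose more than 1.29-fold. The sum of the 8 was 5599 to 5657 TPM in the controls and 6523 to 6618 TPM after co-culture. The part of these markers in the Myl9 values was not tested.

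Myl12a and Myl12b encode near-identical nonmuscle regulatory chains, lie next to each other in the genome and resemble Myl9 closely. Their separate values are uncertain, because the sources do not say how reads common to such copies were assigned. Myl12a held 790, 781 and 807 TPM in the controls and 847, 847 and 855 TPM after co-culture, a log2 fold change of 0.10 (SE 0.02, limma adjusted p = 0.00268). Myl12b held 244, 246 and 242 TPM in the controls and 186, 185 and 191 TPM after co-culture, a log2 fold change of -0.38 (SE 0.03, limma adjusted p = 2.92e-06). The Myl12a call was lost when limma's error estimate was made without the mean-variance trend (adjusted p = 0.0814), whereas that of Myl12b was kept. Myl10, a further regulatory chain gene, was listed at 0 in all 6 libraries.

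The make-up of each light chain class moved with these genes. The 7 regulatory chain genes added up to 1782 ± 5.18 TPM in the controls and 2225 ± 7.49 TPM after co-culture, a difference of 443 TPM beside one of 420 TPM for Mylpf alone. Mylpf made up 17.5%, 17.5% and 16.4% of the regulatory sum in controls and 32.6%, 32.9% and 32.4% after co-culture. The share of Myl12a went from 44.5% ± 0.873 to 38.2% ± 0.139 and that of Myl9 from 24.7% ± 0.339 to 20.6% ± 0.222 (SD, n = 3 each), although the TPM of neither was lower. The 5 essential chain genes added up to 1892 ± 7.13 TPM in the controls and 2361 ± 52.4 TPM after co-culture. Myl6 held 66.6% ± 0.730 of that sum in controls and 52.6% ± 0.572 after co-culture, and the striated muscle chains Myl1, Myl3 and Myl4 together 31.9% ± 0.498 and 44.8% ± 0.513. The ratio of Mylpf to Myl1 was 0.780, 0.808 and 0.760 in controls and 1.12, 1.17 and 1.15 after co-culture, so Mylpf was below Myl1 in each control and above it in each co-culture library. The ratio of Myl4 to Myl1 went from 0.544 ± 0.0217 to 0.668 ± 0.0235. These shares and ratios restate the TPM above and were not tested.

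**Figure D2:**
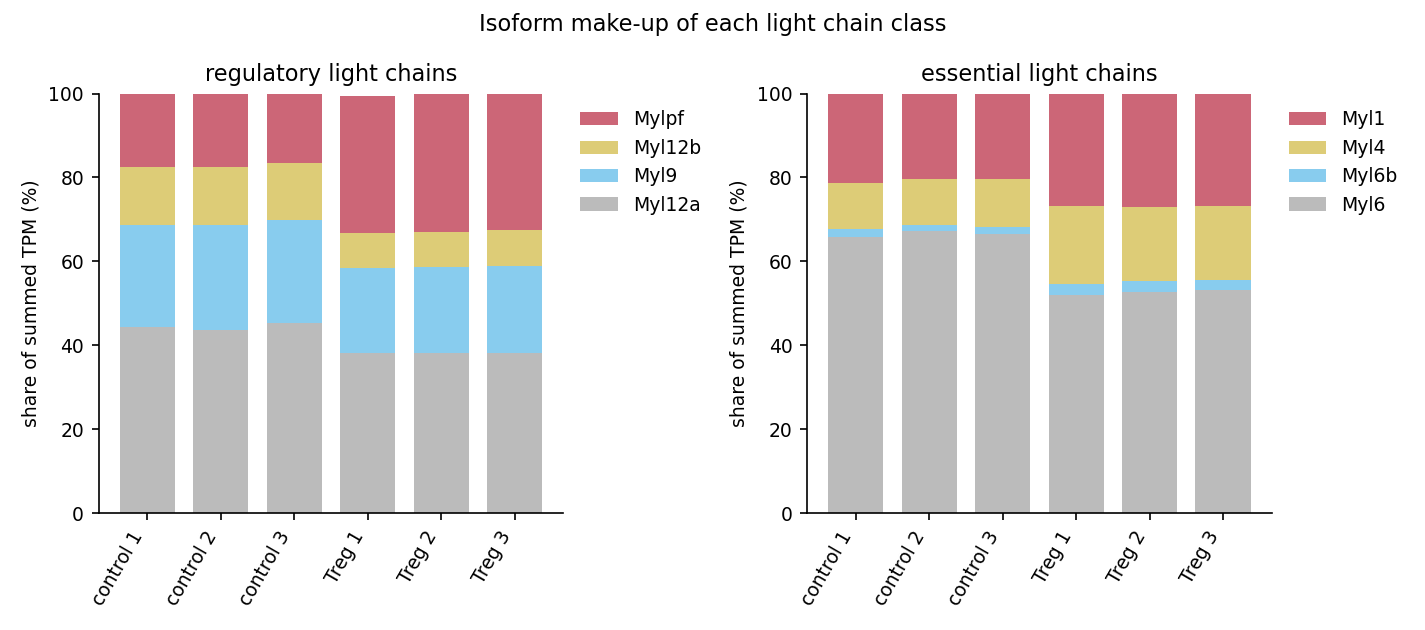
Share of the summed TPM (y axes, percent) of each regulatory (left) and essential (right) light chain gene in the 3 control and 3 Treg co-culture libraries; Myl2, Myl3 and Myl7, together under 1% of a class, are not drawn. The Mylpf share is 16.4% to 17.5% in controls and 32.4% to 32.9% after co-culture, and the Myl6 share is lower in all 3 co-culture libraries than in the controls.

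Myl2, Myl3 and Myl7 were at or near 0, apart from Myl2 and Myl3 in 1 library. Myl2, the regulatory chain of the ventricle and of slow muscle, was listed at 0, 0 and 0.869 TPM in the controls in order of number and at 10.9, 0.217 and 0 TPM in the co-culture libraries. Myl3, the essential chain that pairs with it, had 0.145, 0.148 and 0.159 TPM in the controls and 5.30, 0 and 0.296 TPM after co-culture. For both genes Treg co-culture 1 alone was high, while Treg co-culture 2 and 3 overlapped with the controls. Neither passed the threshold (limma adjusted p = 0.344 for Myl2 and 0.281 for Myl3), and without that library both were under the 1 TPM filter. Myl7, the regulatory chain of the atria, had 0, 0 and 0.244 TPM in the controls and 0.645, 0.976 and 0.227 TPM after co-culture. It overlapped between groups and was under the filter in all 6 libraries together. An exact two-sided permutation test of its TPM gave p = 0.2, where the smallest p that 3 against 3 libraries allow is 0.1.

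Treg co-culture 1 stood apart in other organ transcripts as well. In this library 62 genes were at 1 TPM or more and at least 5 times their level in every other library, Myl2 and Myl3 among them, against 1 to 3 such genes in each of the other 5. Of 10 adult heart markers none was at 0 in Treg co-culture 1, and 1 to 4 were at 0 in the other libraries. Its cardiac myosin Myh6 was 2.64 TPM against at most 0.065 TPM elsewhere, and its cardiac troponin Tnni3 4.45 TPM against at most 0.665 TPM. Not every heart marker was highest in Treg co-culture 1. Nppb was 2.96 TPM in it and 3.24 TPM in control 2, and Ryr2 was 0.0270 and 0.0280 TPM. The sum of the heart list was 309, 309 and 302 TPM after co-culture and 116 to 125 TPM in controls, most of it from Tnnt2 and Actn2, which developing skeletal muscle also uses. The sum of 9 liver markers was 209 TPM in Treg co-culture 1 and 84.7 to 90.3 TPM elsewhere. With Alb at 64.9 TPM, Apoa2 at 10.2 TPM and Trf at 101 TPM, that library was the highest for each of its leading genes. The part of these transcripts in the Myl2 and Myl3 values was not tested.

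**Figure D3:**
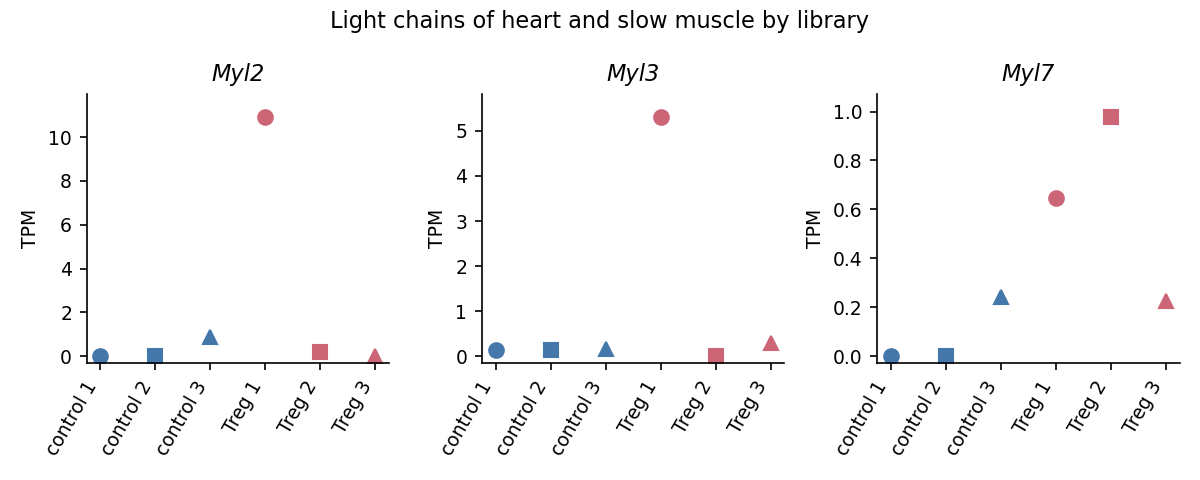
TPM (y axes) of Myl2, Myl3 and Myl7 in each control (blue) and Treg co-culture (red) library, with the marker shape giving the library number. Treg co-culture 1 alone is high for Myl2 (10.9 TPM) and Myl3 (5.30 TPM), whereas Myl7 is under 1 TPM in every library.

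Mylk encodes the kinase that phosphorylates regulatory light chains in smooth muscle and nonmuscle cells. Alternative starts give a long and a short kinase and the kinase-free protein telokin, which the value per gene does not separate. The controls held 76.7, 74.1 and 77.7 TPM and the co-culture libraries 54.6, 61.9 and 60.9 TPM. All co-culture values were below all controls, as for 24.0% of the genes tested, and Treg co-culture 1 was the lowest. The mean fell 1.29-fold, from 76.2 ± 1.86 to 59.1 ± 3.99 TPM (log2 fold change -0.36, SE 0.05, limma adjusted p = 0.000363), and the log2 fold change was -0.31 without Treg co-culture 1. Within batches the log2 differences were -0.48, -0.26 and -0.35. The ratio of Myl9 to Mylk went from 5.78 ± 0.235 to 7.76 ± 0.435.

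Of the related kinases, Mylk2 and Mylk4 rose. Mylk2, the skeletal muscle kinase, stood at 1.07, 0.592 and 0.829 TPM in the controls and 2.06, 2.15 and 2.54 TPM after co-culture (log2 fold change 0.84, SE 0.16, limma adjusted p = 0.00261). Mylk4 rose from 2.35 ± 0.186 to 4.24 ± 0.320 TPM (limma adjusted p = 0.00192). Both remained far below Mylk in TPM. The cardiac kinase Mylk3 held 1.17, 1.14 and 1.17 TPM in the controls and 1.02, 0.506 and 1.30 TPM after co-culture and was not called (limma adjusted p = 0.508).

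Around the light chains, 43 further genes of myosin motors and their control were listed in 7 groups, of which 35 were tested, 16 rose and 4 fell. Their median log2 fold change was 0.07, against 0.00 over all genes tested. Beside this count and those of every other list here, 19.8% of all genes tested were called higher and 18.0% lower. Among 13 other light chain kinases and calmodulin genes, 6 rose and 1 fell. Citron kinase Cit, which acts in cell division, went from 4.69 ± 0.350 to 7.78 ± 0.377 TPM (log2 fold change 0.63). The death-associated kinase Dapk1 fell from 54.9 ± 1.11 to 34.7 ± 0.526 TPM (log2 fold change -0.65), and Dapk3 was not called (limma adjusted p = 0.517). Dapk2, which was not on the list, rose from a mean of 3.025 to 8.987 TPM (log2 fold change 1.31, limma adjusted p = 4.88e-06).

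Of 9 genes for the myosin phosphatase and its inhibitors, 3 rose and none fell in the limma fit, beside 19.8% and 18.0% of all genes tested. These were the inhibitor genes Ppp1r14b (135 ± 5.06 to 188 ± 0.543 TPM) and Ppp1r14c (1.84 ± 0.292 to 3.99 ± 0.680 TPM) and the catalytic subunit Ppp1ca (370 ± 8.49 to 409 ± 7.76 TPM). The myosin-targeting subunit Ppp1r12a, which brings the phosphatase to the motor, was not called (log2 fold change 0.05, limma adjusted p = 0.403), nor was the catalytic subunit of that complex, Ppp1cb (-0.05, limma adjusted p = 0.374). The catalytic subunit Ppp1cc had a log2 fold change of -0.12 (limma adjusted p = 0.201), and without control 2 it was called lower (-0.21, limma adjusted p = 0.0140). Mylip, a ubiquitin ligase named for its binding to light chains, was not called (-0.18, limma adjusted p = 0.151).

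Among the heavy chains that carry the light chains, the sarcomeric ones tested rose and the nonmuscle ones went both ways. All 4 sarcomeric heavy chains tested rose, namely Myh3 (70.6 ± 1.80 to 229 ± 3.76 TPM), Myh7, Myh8 and Myh1, and 5 others were under the filter. Of those 5, Myh2 was low in all libraries, with 0.498, 0.509 and 0.687 TPM in the controls and 0.230, 0.0710 and 0.154 TPM after co-culture, the co-culture values lying below the controls. Of the nonmuscle and smooth muscle chains, Myh9 rose (726 ± 14.9 to 840 ± 19.1 TPM), Myh10 (153 ± 2.05 to 130 ± 1.98 TPM) and Myh11 (14.7 ± 1.69 to 11.0 ± 0.241 TPM) fell, and Myh14 was under the filter. Srf, the factor that binds CArG boxes of muscle genes, rose from 32.4 ± 2.85 to 45.1 ± 0.815 TPM (log2 fold change 0.47, limma adjusted p = 0.000266). Its actin-sensing partners Mrtfa (0.09, limma adjusted p = 0.239) and Mrtfb (-0.07, limma adjusted p = 0.416) were not called.

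**Figure D4:**
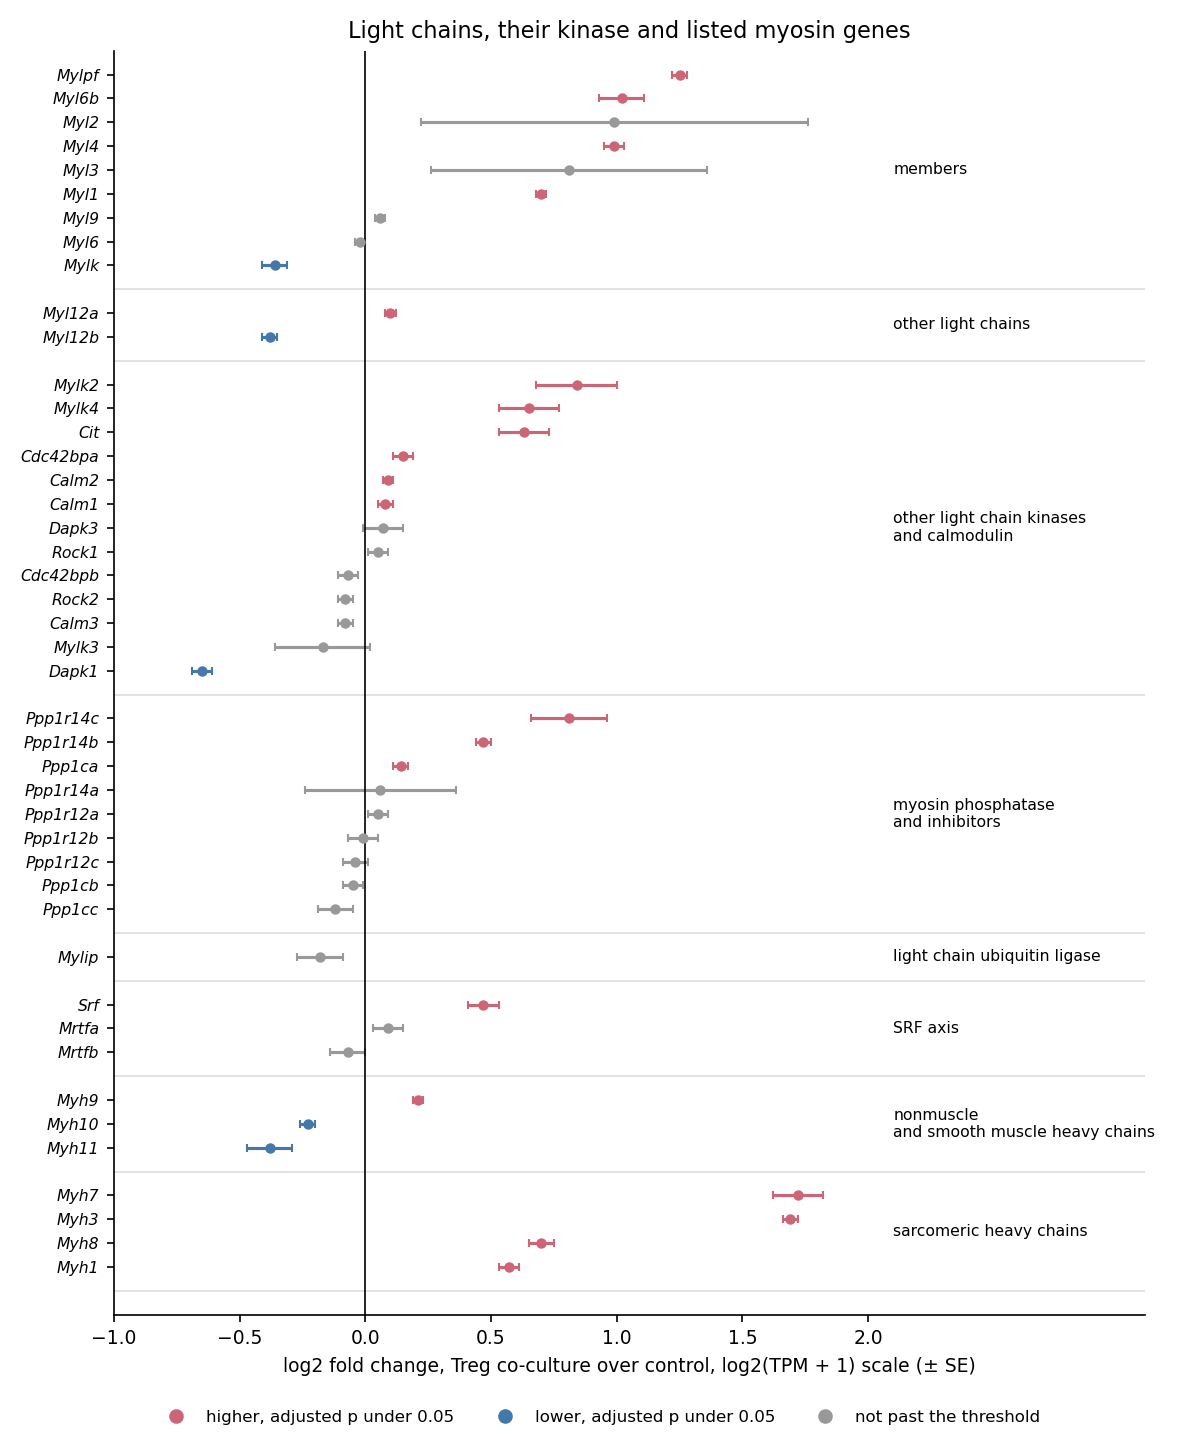
Log2 fold change of Treg co-culture over control on the log2(TPM + 1) scale (x axis, ± limma SE) for the 9 light chain and kinase genes tested and 35 listed myosin genes, grouped by role (a row each). Red and blue points passed an adjusted p of 0.05 upward and downward, grey points did not; Mylpf lies at 1.25, Mylk at -0.36, and Myl2 and Myl3 have the widest errors of the first group.

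RefSeq promoter windows (build GRCm38.p6, 250 bases before a listed transcription start) were matched for all 10 genes, Myl2 and Myl6 having 2 windows each. They were searched on both strands for the E-box CANNTG bound by MyoD-type factors, for its form CAGCTG (which is also a CANNTG), for the CArG box bound by Srf and for the MEF2 box. The stretches below show where such letters lie near the 2 fast muscle chains and Myl6b, which rose, beside Myl9, which was not called, and Myl3, which was near 0 in all libraries but 1. Capitals mark a motif match, bases are written 5′ to 3′ in the direction of the gene, and exons annotated by GENCODE were left out.
Mylpf, chr7:127211358-127211607, plus strand: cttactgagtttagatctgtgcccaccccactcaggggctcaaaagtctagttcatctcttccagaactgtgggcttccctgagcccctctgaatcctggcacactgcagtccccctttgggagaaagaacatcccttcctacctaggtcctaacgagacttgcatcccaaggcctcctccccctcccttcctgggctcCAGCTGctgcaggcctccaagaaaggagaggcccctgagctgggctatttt
Myl1, chr1:66945144-66945290, minus strand: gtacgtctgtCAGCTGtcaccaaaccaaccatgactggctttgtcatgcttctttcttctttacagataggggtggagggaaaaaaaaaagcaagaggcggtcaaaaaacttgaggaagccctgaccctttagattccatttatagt
Myl6b, chr10:128498686-128498935, minus strand: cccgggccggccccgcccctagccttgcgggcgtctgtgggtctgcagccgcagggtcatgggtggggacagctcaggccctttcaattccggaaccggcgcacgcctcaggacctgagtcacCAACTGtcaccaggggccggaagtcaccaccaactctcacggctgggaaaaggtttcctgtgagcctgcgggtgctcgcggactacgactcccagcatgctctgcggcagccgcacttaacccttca
Myl9, chr2:156775214-156775419, plus strand: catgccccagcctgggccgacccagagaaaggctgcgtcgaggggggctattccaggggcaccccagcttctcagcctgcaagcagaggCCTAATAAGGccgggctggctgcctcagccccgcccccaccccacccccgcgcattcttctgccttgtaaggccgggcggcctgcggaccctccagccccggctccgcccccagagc
Myl3, chr9:110763428-110763645, plus strand: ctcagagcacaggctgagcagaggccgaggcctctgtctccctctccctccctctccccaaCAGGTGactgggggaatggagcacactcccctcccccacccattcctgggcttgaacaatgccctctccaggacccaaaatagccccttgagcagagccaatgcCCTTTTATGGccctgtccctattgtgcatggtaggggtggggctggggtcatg

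Counting the base before the start as -1, CAGCTG lay at -51 to -46 for Mylpf and at -224 to -219 for Myl1. It was also in the second Myl2 window, and 13.0% of all 32851 promoter windows hold it. Outside the 10 genes, the nonmuscle chain Myl12a had a CAGCTG at -104 to -99, partly within annotated exons. Myl6b had a CANNTG at -127 to -122 with the letters CAACTG, a motif that 66.2% of all windows hold. Genes that were not called or not tested held a CANNTG as well. It lay at -71 to -66 in the first Myl6 window, in both Myl2 windows and in those of Myl3 and Myl7. Myl4, which rose about as much as Myl6b, held none of the 4 motifs in its window, and neither did Mylk. The longest stretch of the Myl4 window outside annotated exons was 42 bases. Myl1 and Mylk have alternative starts but 1 window each, so their other starts were not searched. A CArG box lay at -161 to -152 for Myl9, at -85 to -76 for Myl3, at -61 to -52 for Myl7 and at -50 to -41 in the second Myl6 window, against 1.47% of all windows. The second Myl6 window lies wholly within exons annotated by GENCODE. None of the windows of the 10 genes held a MEF2 box, which 2.92% of all windows hold. The matches describe these letters only, and occupancy by a factor was not measured.

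**Figure D5:**
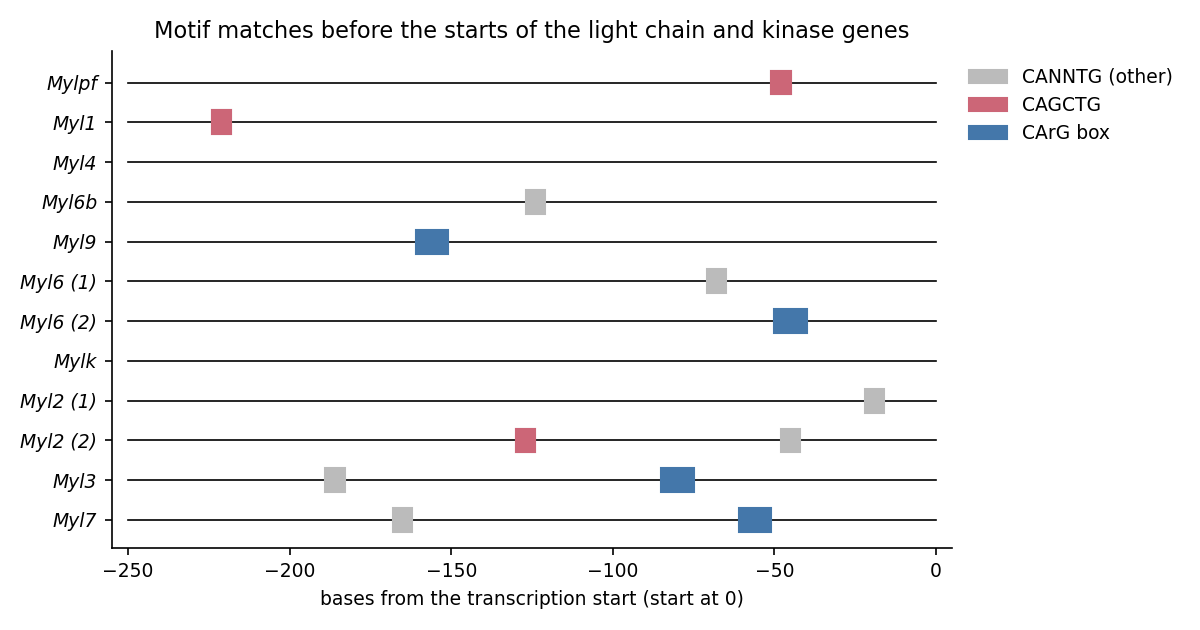
Motif matches (boxes) in the 250 bases before the listed starts of the 10 genes (x axis, bases from the start, with the start at 0), with a row per window and window numbers in brackets. Mylpf, Myl1 and the second Myl2 window hold a CAGCTG (red), 4 windows hold a CArG box (blue), and the windows searched for Myl4 and Mylk hold neither.

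Genes with the most similar pattern were found by the root mean square difference, over the 6 libraries, of log2(TPM + 1) centred on the control mean. Nearest to Mylpf were the calcium store gene Srl (difference 0.036), the secreted phosphoprotein gene Spp1 (0.045) and the fusion gene Mymk (0.050). Srl held between 34.8 and 38.0 TPM in the controls and between 84.9 and 85.4 TPM after co-culture. Nearest to Mylk were Pcmtd2 (0.016), Fam102b (0.031) and Rab6b (0.033), each with its lowest value in Treg co-culture 1, as for Mylk. Nearest to Myl9 were Rpl19, P4hb and Hmgn1, all within 0.013. Nearest to Myl2 were Mup22, Fgg and Serpina1b (0.333 to 0.353), which were listed at 0 in every library but Treg co-culture 1. All these genes share the same 6 libraries, and the likeness is given as a description.

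The label of the cells was checked against markers. All 10 adipose stromal markers were above 0 in every library, led by Col1a1, Itgb1 and Thy1. Their sum was 8983 to 9514 TPM in the controls and 8333 to 8707 TPM after co-culture. Of the 10, 6 fell, among them Col1a1 (6705 ± 317 to 5939 ± 171 TPM), Pdgfra (190 ± 1.43 to 139 ± 3.76 TPM) and Cd34 (66.9 ± 3.66 to 47.9 ± 0.889 TPM). The falls of Pdgfrb, Ly6a and Thy1 were at most 1.11-fold. Another 3 rose, namely Cd44 (120 ± 4.02 to 180 ± 2.09 TPM), Itgb1 (1.06-fold) and Eng (1.08-fold). The part of this shift in the light chain values was not tested. Of 10 T cell markers, Cd3e, Cd3d, Cd3g, Cd4, Il2ra, Ctla4 and Cd2 were listed at 0 in all 6 libraries, and the list sum was 1.08 to 1.58 TPM in the controls and 1.45 to 1.87 TPM after co-culture. Lck led it at 0.718 to 1.20 TPM, followed by Ptprc and Foxp3. Ptprc, which was under the filter, held 0.326, 0.304 and 0.414 TPM in the controls. After co-culture it held 0.443, 0.528 and 0.633 TPM, all above the controls, as for 25.3% of the genes tested. A list of 8 macrophage markers, led by Lyz2, Cd68 and Csf1r, summed to 87.1 to 93.9 TPM in the controls and 63.1 to 75.6 TPM after co-culture. Of the 6 tested, Lyz2 (65.9 ± 4.18 to 44.7 ± 6.26 TPM) fell and 5 were not called, among them Csf1r (4.58 ± 0.354 to 5.38 ± 0.865 TPM).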

How the data were processed

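Polyadenylated RNA of 6 ADSC libraries was sequenced, per the labels' protocols. The authors deposited 1 table of TPM per gene and library, adding up to 1000000 in each, so depth is unknown. GRCm38, mm10 and GRCm39 appear in the submitters' processing notes without a role. The aligner, counter and annotation used by the authors are not given. Of 22186 gene numbers, 21992 (99.1%) matched a RefSeq symbol of GRCm38.p6. No 2 columns were copies (at most 129 identical values above 0 in a pair).

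The 12405 genes whose mean over the 6 libraries was 1 TPM or more were tested on log2(TPM + 1), which understates changes of low genes, with limma 3.58.1 in R 4.3.3 (eBayes with a mean-variance trend, Treg co-culture against control, Benjamini-Hochberg over all genes). SE are limma's moderated errors. Python 3.11.15, pandas 2.3.3 and matplotlib 3.10.9 made tables and plots. The members and lists were chosen with earlier results of these data known. Named genes are all members, up to 4 genes per list with the lowest adjusted p, the other light chains, the 3 patterns nearest to Mylpf, Myl9, Mylk and Myl2, and the 3 highest markers per list. Others, such as Ppp1r12a, Myh2, Pdgfra, Pdgfrb, Ly6a, Cd34, Cd44, Eng, Ppp1cb, Mylk3, Dapk2, Dapk3, Myh6, Tnni3, Nppb and Ryr2, were chosen after their values were seen. One further list of regulators is not reported here.

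The labels give same-numbered libraries a shared batch. Their deviations from the group means correlated at 0.0115, -0.0146 and 0.00402. Alternatives were batch as a replicate block, a pseudocount of 0.1, no filter or one of 5 TPM, scaling by median of ratios or quantiles, eBayes without the trend, an adjusted p of 0.01 and each library left out. Data were simulated for Treg co-culture against control (12405 genes), with independent normal noise, and low genes were left out of those changed. There limma recovered 97 of 100 genes changed by 1 on the log2 scale and 59 of 100 changed by 0.3, with 8 false calls. Recovery of low genes such as Myl2 and Myl3 was thus not measured.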

Additional observations from a re-analysis of the deposited data

How the results depend on the processing

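The counts of 4 higher and 1 lower among the light chain and kinase genes were the same under each alternative listed above, and all 122 values of single members under them kept their direction and their side of the threshold. With the replicate block 2369 genes were called higher and 2123 lower, and among the members again 4 and 1. The block ended no call of a member. At an adjusted p of 0.01 the calls over all genes were 1626 higher and 1417 lower, against 2454 and 2234 at 0.05. Without Myl12a and Myl12b the Mylpf share of the regulatory class was 41.0% in controls and 61.1% after co-culture, since fewer genes enter the sum. Of 291 values of other named genes, 289 kept their side of the threshold. The exceptions were Myl12a without the trend and Ppp1cc without control 2. These values cover Myl12a, Myl12b and up to 4 genes per list with the lowest adjusted p. Among all listed genes of myosin motors and their control, 16 rose and 4 fell in the main fit. Without the trend 13 rose, and without control 2 6 fell. Scaling moved the median log2 fold change of all genes from 0.002 to at most -0.006. With no filter Myl7 had a log2 fold change of 0.56 (SE 0.18, limma adjusted p = 0.0570). Myl2 and Myl3 gave no value without Treg co-culture 1 or with the filter of 5 TPM. TPM keep no depth, which limits what can be said of genes near 0.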
